A study of Homo sapiens with 6 samples.

Results

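The genes described here encode 10 proteins that write, read or rebuild heterochromatin marked by methylation of lysine 9 of histone H3. They are the methyltransferases SUV39H1, SUV39H2, EHMT1 and EHMT2, the EHMT partner WIZ, the heterochromatin protein 1 (HP1) genes CBX1, CBX3 and CBX5, and the chromatin assembly factor 1 (CAF-1) subunits CHAF1A and CHAF1B. They were chosen by name, and all 10 were found among the 53712 genes of the count table and were among the 16873 genes with enough counts to be tested. RNA-seq was run on poly(A) RNA of H9, an established embryonic stem cell line of human origin. The cells were grown in PXGL medium and are called naive in the series' design text. The ASO-L1 group (3 libraries) received an antisense oligonucleotide against LINE-1, a family of retrotransposons that carry their own copying machinery, and the SO-L1 group (3 libraries) received the sense oligonucleotide. Both groups had 25 nM oligonucleotide by lipid transfection, together with 0.7 µM trans-ISRIB, 5 µM emricasan and 10 µM of the ROCK inhibitor Y-27632, which were removed after 24 hours, and RNA was taken at 48 hours. The cells were of 1 line and were not sorted, so cells that took up no oligonucleotide were measured too. Nothing in the labels says that the replicates were separate cultures, so the p-values cover the spread among these libraries alone, which may be technical. The level of LINE-1 RNA, which would check the knockdown, was not analysed here. Library totals ran from 23330875 to 31164287 counts, and each of the 10 genes had between 339 and 11208 counts in each library.

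SUV39H1 and SUV39H2 are paralogous enzymes that trimethylate lysine 9 of histone H3, chiefly at pericentromeric repeats and, in mouse embryonic stem cells, also at LINE-1 elements. EHMT2 (G9a) and EHMT1 (GLP) act as a heteromer that places the lower methylation states in euchromatin, and the zinc finger protein WIZ holds that complex together and on chromatin. The HP1 proteins bind the methylated lysine through their chromodomain and each other through their chromoshadow domain. CAF-1 deposits new histones H3 and H4 behind the replication fork, and its large subunit binds both PCNA and HP1. In mouse embryonic stem cells, loss of CAF-1 releases a state that resembles the early cleavage embryo, and the study's title places this experiment in work on repression of the human counterpart of that state.

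Promoter sequence is shown for the 3 genes whose change passed the test described below. Each line is the 250 bases before a start site of RefSeq (GRCh38.p14), read 5′ to 3′ on the gene's strand, and capitals mark matches on either strand to CCAAT (bound by NF-Y), GGGCGG (SP1), CACGTG (the E-box of MYC and USF factors) or the NRF1 motif, which is GCGCA and GCGC with any base between. For SUV39H1 the window is chrX:48696484-48696733 (plus strand), before the downstream of its 2 starts, for CBX5 chr12:54280123-54280372 (minus strand), before the outermost of its 3 starts, and for CHAF1A chr19:4402390-4402639 (plus strand).
SUV39H1: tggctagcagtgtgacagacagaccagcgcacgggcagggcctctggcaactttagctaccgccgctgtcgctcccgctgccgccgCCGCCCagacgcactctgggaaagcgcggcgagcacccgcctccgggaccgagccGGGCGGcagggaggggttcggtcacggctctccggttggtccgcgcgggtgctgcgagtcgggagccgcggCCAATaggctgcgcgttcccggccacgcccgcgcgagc
CBX5: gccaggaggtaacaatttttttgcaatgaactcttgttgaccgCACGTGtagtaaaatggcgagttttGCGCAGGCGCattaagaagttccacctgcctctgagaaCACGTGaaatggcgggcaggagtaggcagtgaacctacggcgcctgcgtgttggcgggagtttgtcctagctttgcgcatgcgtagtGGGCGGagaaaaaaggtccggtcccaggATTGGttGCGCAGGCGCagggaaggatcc
CHAF1A: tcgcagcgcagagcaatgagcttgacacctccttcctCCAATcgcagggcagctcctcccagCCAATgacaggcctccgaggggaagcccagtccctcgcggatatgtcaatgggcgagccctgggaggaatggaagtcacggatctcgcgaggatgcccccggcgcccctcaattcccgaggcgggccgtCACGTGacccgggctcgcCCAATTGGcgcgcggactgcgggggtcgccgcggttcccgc

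The CBX5 window held 2 matches to the NRF1 motif, and a match was found in 5.05% of all 34788 such windows of the table. It also held 2 matches to the E-box, found in 6.31% of windows, and the CHAF1A window held 1. CCAAT was matched 4 times before CHAF1A, where 2 matches overlap in CCAATTGG, and 1 time each in the windows shown for SUV39H1 and CBX5, against 32.0% of all windows with at least 1 match. GGGCGG, found in 42.6% of windows, was matched 2 times in the SUV39H1 window shown, 1 time in that of CBX5 and not in that of CHAF1A. Of the other 7 genes, EHMT1 held 4 matches to the NRF1 motif, the last 2 of them overlapping, and CHAF1B held 6 to GGGCGG, while none of the motifs searched was matched before CBX1. Nor was any matched before the upstream of the 2 starts of SUV39H1 (chrX:48695304-48695553, not shown). The windows before the other 2 starts of CBX5 (chr12:54259587-54259836 and chr12:54259546-54259795, not shown) overlap. Each held 1 match to CCAAT and none to the other motifs searched. The E2F motif, searched as TTTGGCGC, TTTCGCGC and GGCGGGAA on both strands, was matched in 3.62% of all windows and in none of the 15 windows of these genes. The cyclic AMP response element TGACGTCA (1.64% of windows) was matched before SUV39H2, and an EGR motif (GCGTGGGCG or GCGGGGGCG, 5.36%) before CHAF1B, where it overlaps a GGGCGG match. A match is a run of letters, and binding was not measured here.

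After ASO-L1, SUV39H1 and CHAF1A rose and CBX5 fell, and the other 7 genes did not pass the test. The test was edgeR's quasi-likelihood test across all genes at a Benjamini-Hochberg adjusted p under 0.05. It called 33.7% of all tested genes, 18.0% higher and 15.7% lower, so 3 calls among 10 are close to the share of genes at large. Scaled by library totals alone it called 2653 genes higher and 3026 lower, against 3031 higher and 2653 lower with TMM. The median absolute log2 fold change was 0.10 over the 10 genes, against 0.27 over all tested genes. That comparison was not matched for level. The 10 genes had 339 counts or more in each library, while the filter on all genes asked for a minimum count of 10. For 4 of the 10, these 3 genes and EHMT1, all ASO-L1 libraries lay on 1 side of all SO-L1 libraries, as for 50.9% of tested genes. When the replicate number was added as a block, EHMT1 was called lower as well, making 2 higher and 2 lower, and the test then called 45.7% of all genes, 23.3% higher and 22.5% lower. Scaled by library totals alone, without TMM, 1 was higher (SUV39H1) and 2 lower (CBX5 and EHMT1).

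**Figure D1:**
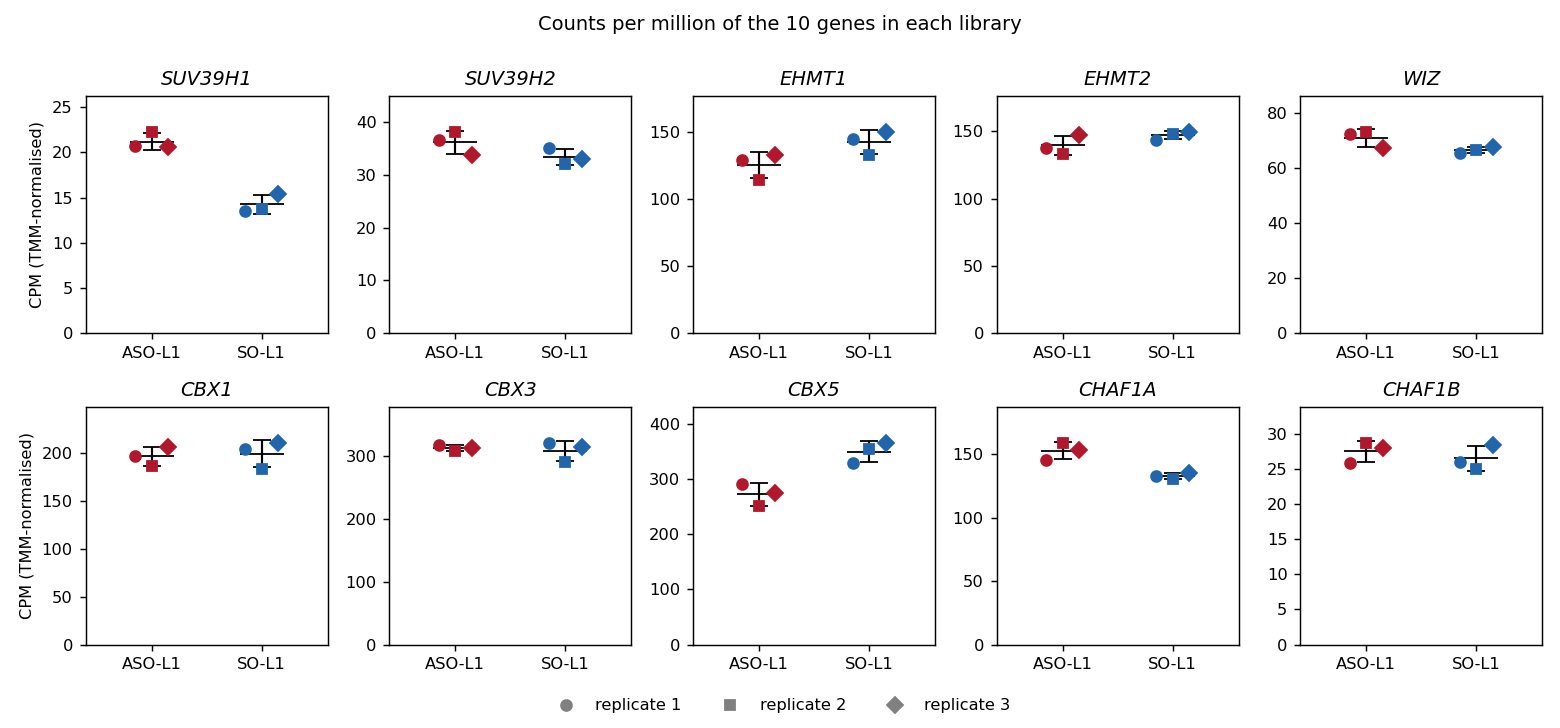
CPM (counts scaled to the TMM-normalised library size, vertical axis from 0) of the 10 genes in the 3 ASO-L1 and the 3 SO-L1 libraries. Each point is 1 library with the marker shape giving its replicate number, and bars are the mean ± SD. All ASO-L1 points lie above all SO-L1 points for SUV39H1 and CHAF1A and below them for EHMT1 and CBX5.

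Among the methyltransferases of constitutive heterochromatin, SUV39H1 had 20.7, 22.3 and 20.6 CPM (counts scaled to the TMM-normalised library size) in ASO-L1 replicates 1 to 3, against 13.5, 13.8 and 15.5 CPM in SO-L1 replicates 1 to 3. Every ASO-L1 library lay above every SO-L1 library, and the gap between the groups was wider than the spread within either. It averaged 21.2 ± 0.933 CPM in ASO-L1 and 14.3 ± 1.05 CPM in SO-L1 (SD, n = 3 each), a log2 fold change of 0.57 ± 0.09 (SE) with a 95% confidence interval of 0.36 to 0.78, or a 48.5% higher level (edgeR adjusted p = 0.00282). It was higher in ASO-L1 in 3 of 3 replicate numbers, by 0.61, 0.69 and 0.42 on the log2 scale. Still, 19.3% of all tested genes, not matched for level, had a larger absolute change. The call was lost with the libraries numbered 1 left out (adjusted p = 0.0554).

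SUV39H2 was the more abundant transcript of the pair and did not pass the test. It had 36.5, 38.1 and 33.7 CPM in the ASO-L1 libraries, against 35.1, 32.0 and 33.0 CPM in the SO-L1 libraries, and the groups overlapped. Its log2 fold change was 0.11 ± 0.08 with an interval of -0.07 to 0.29 (edgeR adjusted p = 0.303). The SUV39H1 to SUV39H2 ratio of counts within a library, which no scaling between libraries can move, was 0.567, 0.585 and 0.612 in ASO-L1 and 0.386, 0.431 and 0.468 in SO-L1. The ratio was thus higher in every ASO-L1 library. The log2 ratio averaged -0.77 ± 0.06 in ASO-L1 and -1.23 ± 0.14 in SO-L1, a difference of 0.46. The exact permutation test gave p = 0.1, the smallest that 3 against 3 libraries allow, and 0.167 after adjustment over the 5 ratios tested. Together the 2 transcripts summed to between 54.4 and 60.4 CPM in ASO-L1, against 45.8 to 48.6 CPM in SO-L1.

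In the euchromatic methyltransferase complex no gene passed the test with TMM factors, all 6 libraries and no block, and EHMT1 passed in 3 of the 16 alternatives. EHMT1 had 129, 114 and 133 CPM in the ASO-L1 libraries, against 145, 133 and 150 CPM in the SO-L1 libraries. The highest ASO-L1 library and the lowest SO-L1 library nearly met, and within each replicate number ASO-L1 was lower, by -0.17, -0.22 and -0.18 on the log2 scale. The log2 fold change was -0.19 ± 0.08 with an interval of -0.36 to -0.02, and edgeR gave an adjusted p of 0.0802 without and 0.0135 with the replicate block. Scaling by library totals alone (0.0465) and leaving out replicate 2 of both groups (0.00466) also brought the call. EHMT2 (G9a) averaged 140 ± 7.24 CPM in ASO-L1 and 147 ± 2.97 CPM in SO-L1, with overlapping libraries and a log2 fold change of -0.08 ± 0.06 (interval -0.21 to 0.06). WIZ averaged 70.8 ± 3.10 and 66.4 ± 1.06 CPM in ASO-L1 and SO-L1, with ASO-L1 replicate 3 (67.3 CPM) inside the SO-L1 range and a log2 fold change of 0.09 ± 0.07 (interval -0.05 to 0.24). Neither EHMT2 (edgeR adjusted p = 0.374) nor WIZ (0.295) passed. The EHMT2 to EHMT1 ratio was 1.07, 1.17 and 1.11 in ASO-L1 and 0.992, 1.11 and 0.997 in SO-L1, which overlap (exact permutation p = 0.2, adjusted 0.25).

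**Figure D2:**
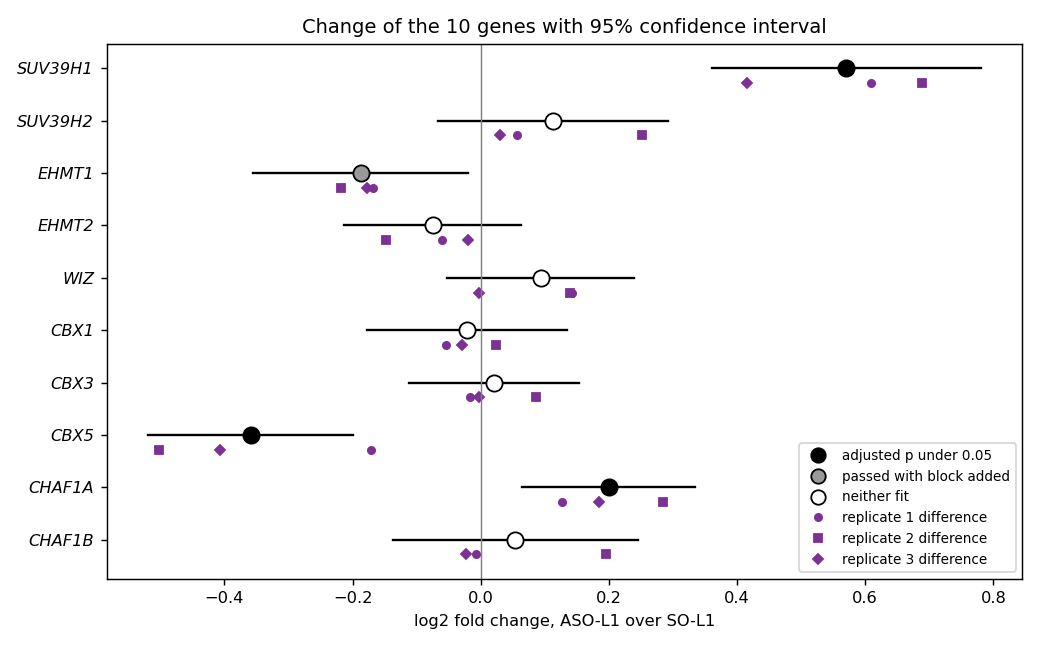
Log2 fold change (ASO-L1 over SO-L1, horizontal axis) of each gene from the fit across all genes, with its 95% confidence interval as a line and, under it, the log2 difference within each replicate number. SUV39H1 (0.57), CHAF1A (0.20) and CBX5 (-0.36) are filled black, EHMT1 (-0.19) is grey because, of the fits with and without the replicate block, it passed the one with it, and the intervals of the other 6 genes include 0.

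The HP1 genes did not move alike. CBX5, which encodes HP1α, had 292, 251 and 276 CPM in the ASO-L1 libraries, against 329, 355 and 366 CPM in the SO-L1 libraries. All ASO-L1 libraries were below all SO-L1 libraries, with replicate 1 closest together. The level averaged 273 ± 21.0 CPM in ASO-L1 and 350 ± 18.7 CPM in SO-L1 (SD, n = 3 each) and fell by 22.0%, a log2 fold change of -0.36 ± 0.07 with an interval of -0.52 to -0.20 (edgeR adjusted p = 0.00526). By replicate number the log2 differences were -0.17, -0.50 and -0.41. Of all tested genes, not matched for level, 37.7% had a larger absolute change. With the libraries numbered 3 left out the adjusted p was 0.0597.

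CBX3, which encodes HP1γ, a form found also in active genes, had 317, 309 and 313 CPM in ASO-L1, against 321, 291 and 314 CPM in SO-L1. CBX1 (HP1β) had 196, 186 and 206 CPM in ASO-L1, against 204, 183 and 210 CPM in SO-L1. Both sets of libraries overlapped, and the intervals were narrow enough to bound a change. As a percent change the CBX3 interval ran from -7.49 to 11.2%, and the CBX1 interval from -11.6 to 9.83%, with log2 fold changes of 0.02 ± 0.06 and -0.02 ± 0.07 (edgeR adjusted p = 0.815 and 0.836). The sign of CBX3 changed without SO-L1 replicate 2 (-0.03) and with scaling by library totals alone (-0.01), and that of CBX1 without ASO-L1 replicate 2 (0.02) or SO-L1 replicate 3 (0.02).

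The shares of the HP1 counts differed between the groups in these libraries, though no ratio test below passed. With 3 against 3 libraries the permutation test cannot go below 0.1, so it cannot decide whether the composition changed. CBX5 made up 36.3, 33.6 and 34.7% of all HP1 counts in the ASO-L1 libraries, against 38.5, 42.9 and 41.1% in the SO-L1 libraries. The shares of CBX3 (40.1 ± 1.19% in ASO-L1 and 36.0 ± 1.37% in SO-L1) and CBX1 (25.1 ± 0.764% and 23.2 ± 0.992%) were larger by the same token. The CBX5 to CBX3 ratio of counts was 0.922, 0.812 and 0.881 in ASO-L1 and 1.03, 1.22 and 1.17 in SO-L1. In every ASO-L1 library CBX3 had more counts than CBX5, and in every SO-L1 library CBX5 had more than CBX3. Counts here are not divided by transcript length, so this crossing does not show which transcript was more abundant. By all exons CBX3 was the higher in both groups, at 138 CPM per kilobase against 23.0 in ASO-L1 and 136 against 29.5 in SO-L1. That order depends on the length taken, as given below. The log2 ratio differed by -0.38 (exact permutation p = 0.1, adjusted 0.167). The CBX1 to CBX3 ratio differed by -0.04 on the log2 scale, with overlapping libraries (exact permutation p = 0.4, adjusted 0.4). HP1 transcripts summed to between 745 and 806 CPM in ASO-L1, against 829 to 889 CPM in SO-L1.

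**Figure D3:**
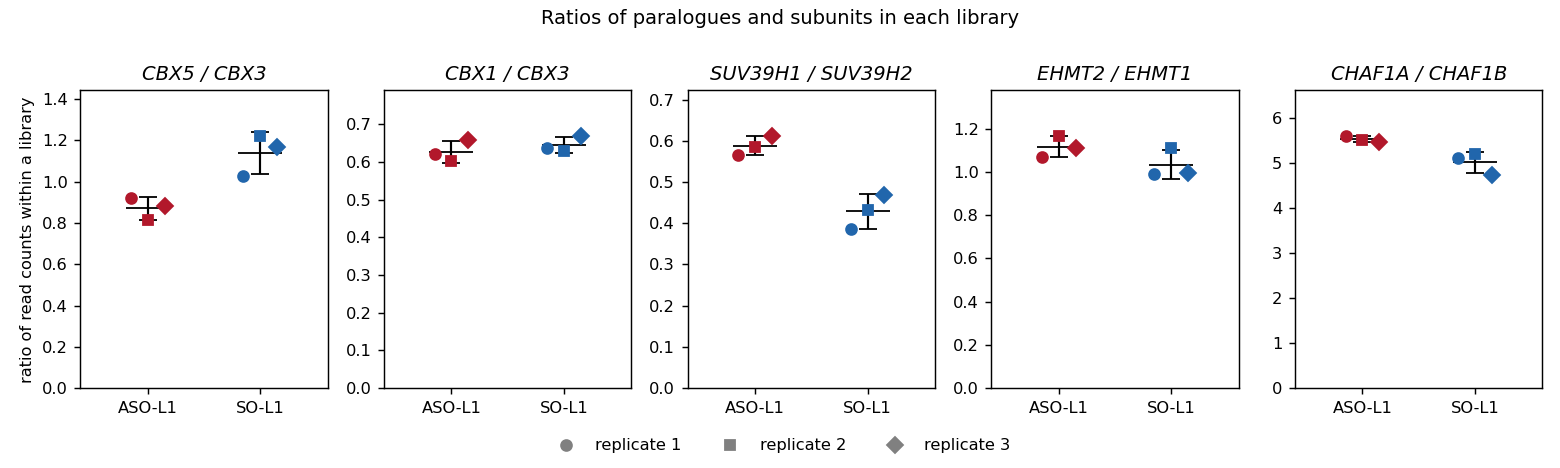
Ratio of read counts of 2 paralogues or subunits within each library (vertical axis from 0), for the 3 ASO-L1 and the 3 SO-L1 libraries, with bars for the mean ± SD and marker shape for the replicate number. The groups do not overlap for CBX5 to CBX3, SUV39H1 to SUV39H2 and CHAF1A to CHAF1B, and they overlap for CBX1 to CBX3 and EHMT2 to EHMT1.

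CBX5 and CBX3 each start beside a gene of the hnRNP A/B family of RNA-binding proteins that is read in the opposite direction. In RefSeq, 603 bases lie between the starts of CBX5 and HNRNPA1, and 696 between those of CBX3 and HNRNPA2B1. HNRNPA1 averaged 1746 ± 20.8 CPM in ASO-L1 and 1588 ± 75.7 CPM in SO-L1, a log2 fold change of 0.14 ± 0.06 (edgeR adjusted p = 0.106), with every ASO-L1 library above every SO-L1 library. The point estimates of CBX5 and its neighbour were thus on opposite sides of 0, and their difference was not tested. HNRNPA2B1 averaged 1361 ± 112 and 1381 ± 53.1 CPM in ASO-L1 and SO-L1, with overlapping libraries and a log2 fold change of -0.02 ± 0.07 (adjusted p = 0.844).

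Of the CAF-1 subunits the large one rose and the middle one did not pass. CHAF1A (p150) had 146, 159 and 154 CPM in ASO-L1, against 133, 130 and 135 CPM in SO-L1. The groups did not overlap, and the log2 differences by replicate number were 0.13, 0.28 and 0.18. The level averaged 153 ± 6.74 CPM in ASO-L1 and 133 ± 2.46 CPM in SO-L1 (SD, n = 3 each), 14.8% higher, with a log2 fold change of 0.20 ± 0.06 and an interval of 0.07 to 0.33 (edgeR adjusted p = 0.029). This call was the least stable of the 3. It ended without ASO-L1 replicate 3 (0.0781) or without SO-L1 replicate 1 (0.0785), 2 (0.0762) or 3 (0.0839), without replicate 1 (0.111) or 3 (0.189) of both groups, with no filter on low counts (0.0814) and with scaling by library totals alone (0.053). In the authors' deposited table CHAF1A has an adjusted p of 0.0946, against 0.00706 for SUV39H1 and 0.00989 for CBX5.

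CHAF1B (p60) averaged 27.6 ± 1.46 CPM in ASO-L1 and 26.5 ± 1.76 CPM in SO-L1, with overlapping libraries, a log2 fold change of 0.05 ± 0.09 and an interval of -0.14 to 0.25 (edgeR adjusted p = 0.658). The CHAF1A to CHAF1B ratio was 5.61, 5.53 and 5.49 in ASO-L1 and 5.11, 5.20 and 4.75 in SO-L1. It was higher in each ASO-L1 library, by 0.14 on the log2 scale (exact permutation p = 0.1, adjusted 0.167). RBBP4, the histone-binding small subunit that CAF-1 shares with PRC2 and other complexes, averaged 198 ± 15.3 CPM in ASO-L1 and 234 ± 4.23 CPM in SO-L1 and fell by 0.24 on the log2 scale (SE 0.07, edgeR adjusted p = 0.0216). It missed the threshold without SO-L1 replicate 1 (0.0719) or 3 (0.0823) and with number 1 (0.131) or 3 (0.117) left out of both groups.

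The 10 genes spanned a wide range of levels. Divided by the exon length of their protein-coding transcripts in GENCODE 29, CBX3 was highest at 138 ± 1.84 CPM per kilobase in ASO-L1 and 136 ± 6.94 in SO-L1, and CBX1 was next at 71.1 ± 3.63 and 72.2 ± 5.19. CHAF1A followed at 45.7 ± 2.02 in ASO-L1 and 39.8 ± 0.736 in SO-L1, EHMT2 at 33.3 ± 1.73 and 35.0 ± 0.704, and CBX5 at 23.0 ± 1.77 and 29.5 ± 1.58. EHMT1 had 11.5 ± 0.895 CPM per kilobase in ASO-L1 and 13.1 ± 0.806 in SO-L1, SUV39H2 11.0 ± 0.677 and 10.2 ± 0.482, and WIZ 7.67 ± 0.335 and 7.19 ± 0.115. The lowest were CHAF1B, at 6.15 ± 0.326 in ASO-L1 and 5.92 ± 0.392 in SO-L1, and SUV39H1, at 6.65 ± 0.292 and 4.47 ± 0.327. Libraries of neighbours in this order overlapped for EHMT1 and SUV39H2 in ASO-L1 and for no other neighbours. SUV39H1 was last in SO-L1 and above CHAF1B in ASO-L1. The order rests on the lengths: with the median transcript length in place of all exons CBX5 came to 149 CPM per kilobase in ASO-L1 and 191 in SO-L1, the second and the first rank. Its exons cover 11851 bases in all, against 1832 in its median transcript. The annotation used for counting is not given in the sources used here, so these levels are approximate.

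The other genes of H3K9 methylation and its readers, written as a list of 16 and all tested, had 4 higher and 1 lower by edgeR, a share near the 33.7% called among all tested genes. The median log2 fold change was 0.12, against -0.01 over all tested genes. CDYL, a chromodomain cofactor of EHMT2, rose to 87.2 ± 10.2 CPM in ASO-L1, against 44.9 ± 7.76 CPM in SO-L1 (0.96 ± 0.13, adjusted p = 0.002). PRDM2, a methyltransferase for lysine 9, rose by 0.72 ± 0.15 (0.00637), and TRIM28, the corepressor that recruits SETDB1 and HP1, by 0.24 ± 0.07 (0.0217). FAM208A, the HUSH subunit now named TASOR, fell by 0.34 (SE 0.08, 0.00796), while SETDB1 itself, at -0.14 ± 0.08, did not pass (0.19). With the replicate block 6 were higher and 2 lower, where 45.7% of all tested genes were called. Without SO-L1 replicate 3 the counts were 2 and 1, without replicate 1 of both groups 1 and 0, without replicate 2 of both 7 and 2, and without replicate 3 of both 2 and 0. Over all tested genes these leave-out settings called 2975, 1183, 7197 and 2820, in that order, against 5684 in the main fit. CDYL passed under every alternative tried. The calls of PRDM2 (0.0583) and FAM208A (0.0649) ended without replicate 1 of both groups, that of FAM208A also without replicate 3 of both (0.0901), and that of TRIM28 without SO-L1 replicate 2 (0.0653) or 3 (0.0699) and with number 1 (0.0741) or 3 (0.115) left out of both.

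Of the 11 demethylases that remove these marks, 1 was higher and 5 were lower by edgeR, where 18.0% of all tested genes were higher and 15.7% lower, and their median was -0.20. Whether the list differs from other genes was not tested. KDM3A, which acts on the lower methylation states, fell to 61.6 ± 8.11 CPM in ASO-L1, against 88.3 ± 4.16 CPM in SO-L1 (-0.52 ± 0.09, adjusted p = 0.00381). KDM4C, which acts on the trimethylated state, fell to 29.2 ± 6.93 CPM in ASO-L1, against 48.1 ± 2.33 CPM in SO-L1 (-0.72 ± 0.15, 0.00876), and KDM7A, listed as JHDM1D, fell by 0.37 (SE 0.10, 0.0183). The exception was KDM4D, a low transcript at 4.42 ± 0.956 CPM in ASO-L1 and 2.84 ± 0.279 CPM in SO-L1 (0.63 ± 0.19, 0.0278). Counts of higher and lower calls were 0 and 3 without ASO-L1 replicate 1, without SO-L1 replicate 1 or without replicate 3 of both groups, 0 and 2 without SO-L1 replicate 3, and 0 and 0 without replicate 1 of both groups. In the same order, 4542, 3166, 2820, 2975 and 1183 of all tested genes were called, against 5684 in the main fit. KDM3A (0.0563) and KDM4C (0.0601) lost their calls only without replicate 1 of both groups. JHDM1D missed the threshold without SO-L1 replicate 2 (0.0519) or 3 (0.0746) and with number 1 (0.0596) or 3 (0.119) left out of both, and KDM4D in 6 of the 9 leave-out settings, with adjusted p from 0.0524 to 0.16.

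**Figure D4:**
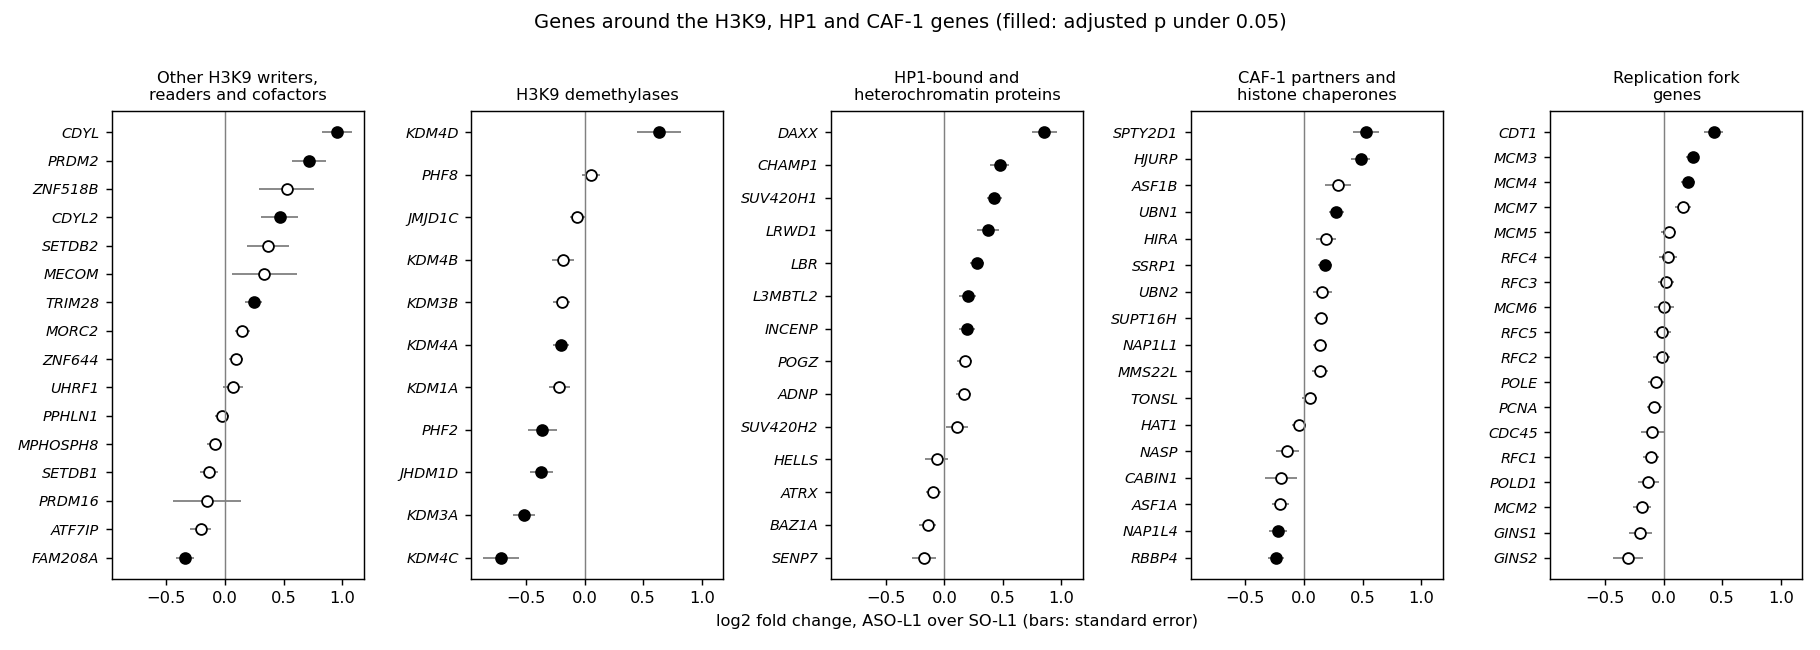
Log2 fold change (ASO-L1 over SO-L1, horizontal axis) with its standard error for every tested gene of 5 lists around the 10 genes, sorted within each list, with filled points for an adjusted p under 0.05. Filled points are 4 higher and 1 lower for other H3K9 writers, readers and cofactors, 1 and 5 for demethylases, 7 and 0 for HP1-bound and heterochromatin proteins, 4 and 2 for CAF-1 partners and histone chaperones, and 3 and 0 for replication fork genes.

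Proteins that bind HP1 or act in heterochromatin had 7 higher and 0 lower of 14 by edgeR, where 18.0% of all tested genes were higher and 15.7% lower, with a median of 0.18. No gene of the list was lower at an unadjusted p under 0.05, and DESeq2 and limma-voom also called 0 lower (5 and 6 higher). DAXX, the chaperone that places histone H3.3 with ATRX, rose to 244 ± 42.6 CPM in ASO-L1, against 135 ± 3.73 CPM in SO-L1 (0.86 ± 0.11, edgeR adjusted p = 0.00163). CHAMP1, an HP1-binding zinc finger protein, rose by 0.47 ± 0.08 (0.00281), SUV420H1, the H4 lysine 20 methyltransferase now named KMT5B, by 0.43 ± 0.07 (0.00224), and LBR, the lamin B receptor that tethers HP1 to the nuclear envelope, by 0.28 ± 0.06 (0.00819). ATRX did not pass, at -0.10 ± 0.06 (0.264). Leaving out SO-L1 replicate 1 gave 4 higher, and leaving out number 1 of both groups gave 3, with LBR no longer called (0.0889). These settings called 1718 and 757 of all tested genes higher, against 3031 in the main fit.

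Among 17 CAF-1 partners and other histone chaperones, 4 were higher and 2 lower by edgeR, a share near the 33.7% of all tested genes, with a median of 0.14. HJURP, the chaperone of the centromeric histone, rose by 0.48 ± 0.08 (adjusted p = 0.00291), SPTY2D1, a chaperone of histones H3 and H4, by 0.53 ± 0.11 (0.0064), and UBN1, a subunit of the HIRA complex, by 0.28 ± 0.06 (0.0101). The partners that hand histones to CAF-1 did not pass, with ASF1A at -0.20 ± 0.07 (0.0565) and ASF1B at 0.29 ± 0.11 (0.0712). With the replicate block both passed, ASF1A as lower (0.0307) and ASF1B as higher (0.0209). The replicate block gave 6 higher and 5 lower, leaving out SO-L1 replicate 1 or 3 gave 3 and 0, and leaving out replicate 1, 2 or 3 of both groups gave 1 and 0, 7 and 4, and 2 and 0. In those last settings SPTY2D1 was lost without replicate 1 (0.0585) and UBN1 without replicate 1 (0.101) or 3 (0.0731). Calls over all tested genes were 5684 in the main fit and 7719 with the block. Without SO-L1 replicate 1 or 3 they were 3166 and 2975, and without number 1, 2 or 3 of both groups 1183, 7197 and 2820.

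Of 18 replication fork genes, with which CAF-1 works, 3 were higher and 0 lower by edgeR, DESeq2 and limma-voom alike, and their median was -0.02. This share was below the 33.7% that edgeR called among all tested genes. At an unadjusted p under 0.05 MCM2 and GINS2 were lower, and both passed with the replicate block (adjusted p = 0.0144 and 0.00165). The licensing factor CDT1 rose by 0.43 ± 0.08 (edgeR adjusted p = 0.00508) and the helicase subunits MCM3 and MCM4 by 0.25 ± 0.06 (0.0107) and 0.21 ± 0.06 (0.0235). PCNA, the clamp that CHAF1A binds, averaged 119 ± 4.80 CPM in ASO-L1 and 126 ± 4.84 CPM in SO-L1 and did not pass (-0.08 ± 0.06, 0.342), and MCM7 passed only with the block (0.0757 without and 0.035 with it). The block gave 4 higher and 3 lower, and without replicate 1, 2 or 3 of both groups the counts were 1 and 0, 3 and 4, and 1 and 0. Among all tested genes 7719 were called with the block, and 1183, 7197 and 2820 with those numbers left out. MCM3 was lost without replicate 1 (0.0896) or 3 (0.0977) of both. MCM4 was lost without ASO-L1 replicate 1 (0.066) or 3 (0.0513), SO-L1 replicate 2 (0.0707) or 3 (0.0724), and replicate 1 (0.108) or 3 (0.14) of both. 

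Germline genes that G9a, GLP or a variant PRC1 complex keep silent in the mouse were sparse here. Of 16 written, 9 had enough counts to be tested, and 0 were called higher and 3 lower by edgeR, with a median of -0.54 over those 9. Of all tested genes 33.7% were called, 18.0% higher and 15.7% lower. Whether the list differs from other genes was not tested. None of the 9 was higher at an unadjusted p under 0.05 or by DESeq2 or limma-voom. The lower ones were TDRKH, a piRNA pathway scaffold, at 13.9 ± 0.829 CPM in ASO-L1 and 20.0 ± 0.936 CPM in SO-L1 (-0.52 ± 0.09, adjusted p = 0.0037), the meiotic cohesin gene STAG3 at 2.41 ± 0.598 and 4.77 ± 0.358 CPM (-0.97 ± 0.19, 0.00508), and MAGEB4 (-1.88 ± 0.64, 0.0445). The meiotic gene HORMAD1, at -0.88 ± 0.33, did not pass without the block (0.0635) and passed with it (0.031). The block called 5 of the list lower, and 22.5% of all tested genes. Without replicate 1 of both groups 1 was called, and TDRKH (0.0593) and STAG3 (0.0656) were lost. That setting called 1183 of all tested genes, against 5684 in the main fit. MAGEB4 averaged 0.122 ± 0.145 CPM in ASO-L1 and was lost by DESeq2 (0.0854) and without ASO-L1 replicate 2 (0.102) or 3 (0.142), SO-L1 replicate 1 (0.102) or 2 (0.0866) or replicate 2 of both groups (0.0623). HORMAD1 passed with SO-L1 replicate 2 left out (0.0351) and with number 2 left out of both groups (0.0379). The other 7 genes of the list had 6 to 43 reads each over all libraries.

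Markers of cell state were also measured. POU5F1, the core pluripotency factor, averaged 1136 ± 79.4 CPM in ASO-L1 and 1265 ± 67.7 CPM in SO-L1, and did not pass (edgeR adjusted p = 0.114, with the replicate block 0.0391). Of the naive markers, KLF17 was low, at 0.395 ± 0.146 CPM in ASO-L1 and 0.743 ± 0.196 CPM in SO-L1. ARGFX and KHDC1L had 16 and 9 reads over all libraries. The genes called lower were DPPA3, at 9.38 ± 2.33 CPM in ASO-L1 and 17.4 ± 0.861 CPM in SO-L1 (edgeR adjusted p = 0.00382), DNMT3L, at 57.5 ± 7.24 and 79.9 ± 2.90 CPM, and SUSD2, at 20.9 ± 1.11 and 30.0 ± 3.69 CPM. Called higher were KLF4, at 74.0 ± 22.5 and 44.9 ± 5.79 CPM, and TFCP2L1, at 50.9 ± 5.64 and 36.6 ± 2.57 CPM. DPPA5, at 17.0 ± 7.27 and 34.2 ± 10.4 CPM, did not pass (edgeR adjusted p = 0.107) but passed with the replicate block (3.21e-07). Over 10 tested naive and general pluripotency markers 2 were higher and 3 lower by edgeR, where 33.7% of all tested genes were called, with overlapping summed levels of 1563 to 1766 CPM in ASO-L1, against 1752 to 1938 CPM in SO-L1. Of 9 tested fibroblast markers 4 were higher, where 18.0% of all tested genes were called higher. Their summed level was 937 to 1117 CPM in ASO-L1, against 670 to 761 CPM in SO-L1, of which VIM held 308 ± 45.1 and 130 ± 19.2 CPM. COL1A1, at 329 ± 16.4 CPM in ASO-L1 and 281 ± 13.9 CPM in SO-L1, and TAGLN, at 105 ± 23.8 and 42.2 ± 4.02 CPM, were called higher. COL1A2, at 203 ± 7.17 and 214 ± 14.4 CPM, did not pass. COL3A1, at 13.2 ± 2.67 and 10.1 ± 3.16 CPM, did not pass without the block (edgeR adjusted p = 0.221) and passed with it (0.00425). LUM had 14 to 36 reads in each library and POSTN 6 to 24. DCN had 9 reads over all libraries, 8 of them in SO-L1 replicate 2. Primed markers had 3 higher of 7 tested (477 to 481 CPM in ASO-L1, against 445 to 488 CPM in SO-L1), with THY1 on this list and the fibroblast list, trophoblast and amnion markers 2 of 9 (29.6 to 48.3 CPM, against 25.6 to 29.4 CPM), and primitive endoderm markers 3 of 7 (113 to 116 CPM, against 111 to 120 CPM). The share to set beside these counts is again 18.0%, and whether any list differs from other genes was not tested. The upper trophoblast value, 48.3 CPM, was that of ASO-L1 replicate 2. In ASO-L1 replicates 1 to 3 the called genes were low, with CDX2 at 1.11, 3.29 and 1.01 CPM and TFAP2A at 1.45, 3.86 and 1.66 CPM. Their SO-L1 means were 0.369 and 0.940 CPM. With the replicate block the pluripotency markers had 2 higher and 6 lower, the primed list 4 and 1 and the trophoblast list 3 and 1. The block called 23.3% of all tested genes higher and 22.5% lower. Without replicate 1 of both groups the pluripotency, primed, trophoblast and endoderm lists had 1, 1, 0 and 1 gene called, and without SO-L1 replicate 3 the trophoblast and endoderm lists had 0 and 1. Those settings called 1183 and 2975 of all tested genes, against 5684 in the main fit. These were unsorted bulk cells, so a change in the share of cells of a kind and a change in RNA per cell cannot be told apart, and the part of these markers in the results above was not tested.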

How the data were processed

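Poly(A) RNA of 3 ASO-L1 and 3 SO-L1 libraries was sequenced after a directional library preparation, per the labels' protocols. The values used are the raw counts of reads per gene, as deposited. Trim Galore 0.4.0, TopHat2 2.0.13, featureCounts, Subread 1.5.0 and the build hg19 are named, without roles, per the submitters' processing notes. For the annotation, the strand setting and the handling of duplicates and near-identical copies, the answer is not given in the sources used here. Of 16 pseudogenes and antisense transcripts of these genes in the table, none had more than 13 counts in a library. The authors' deposited comparison table holds log2 fold changes, t and log-odds scores and p-values per the file headers, and its model is not stated. A deposited batch-corrected table was not used.

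Genes were kept by filterByExpr (minimum count 10, minimum total 15) and tested with edgeR 4.0.16 (TMM factors, robust quasi-likelihood, Benjamini-Hochberg adjustment over all 16873 tested genes). Standard errors were derived from the log2 fold change and its F statistic. Alternatives were RLE factors, library totals only, no filter, CPM above 1 in 3 libraries, DESeq2 1.42.0, limma-voom 3.58.1, a replicate block, each library left out and each replicate number left out of both groups. Deviations from the group means correlated at 0.102, 0.377 and 0.211 for libraries numbered 1, 2 and 3, all above 0.1. Unlike numbers reached 0.162, for ASO-L1 replicate 1 with SO-L1 replicate 3, so pairing is not shown for number 1. The main test took the libraries as unpaired, and the replicate block was fitted as an alternative. Chi-square per degree of freedom between libraries of a group was 2.05 to 24.5, above what sampling noise alone gives, so each library was counted by itself. This does not show that they came from separate cultures. In ASO-L1 it was 2.05 between replicates 1 and 3, and 18.9 and 24.5 between replicate 2 and each of those. In SO-L1 the same values were 6.44, and 11.3 and 12.4. Replicate 2 was thus the most distant library of each group, and why was not tested. Besides the 10 and both neighbours, up to 4 genes a list are named, by smallest p. SETDB1, ATRX, ASF1A, ASF1B, PCNA, MCM2 and GINS2 were added after their values were seen. So were the markers POU5F1, KLF17, KLF4, DPPA5, ARGFX, KHDC1L, COL1A2, COL3A1, LUM, POSTN and DCN. Markers are given by level and count. The members and lists were chosen with earlier results of these data known. Coordinates and promoters are from RefSeq (GRCh38.p14) and exon lengths from GENCODE 29, joined to the counts by symbol only.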

Additional observations from a re-analysis of the deposited data

How the results depend on the processing

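The direction of SUV39H1, CBX5, CHAF1A and EHMT1 was the same under all 16 alternatives, and the calls that ended or began are given beside each gene. With libraries left out the number of the 10 genes called ranged from 1 to 4 (1 without replicate 1 or 3 of both groups). Of all genes, 5684 were called, and with 1 library left out from 2975 (without SO-L1 replicate 3) to 5322, with 3166 without SO-L1 replicate 1. With a replicate number left out of both groups 1183, 7197 and 2820 were called for numbers 1, 2 and 3. Replicate 2 was the most distant library of each group, as given above. Over the 12 lists together 46 genes were called, 72 with the replicate block, 27 to 45 with 1 library left out (30 without SO-L1 replicate 1, 27 without SO-L1 replicate 3), and 12, 71 and 28 with number 1, 2 or 3 left out of both groups. CBX3 reversed with scaling by library totals alone (-0.0131). With 1 library left out the log2 fold change of CBX3 ranged from -0.0253 to 0.0480, that of CBX1 from -0.0842 to 0.0168 and that of HNRNPA2B1 from -0.0678 to 0.0447. With number 1 left out of both groups CBX1 was at 0.00947, and with number 2 left out CBX3 was at -0.0117, CHAF1B at -0.0141 and HNRNPA2B1 at 0.0125. The cause of these changes was not tested. The replicate block changed the call of no gene among the 10 other than EHMT1. The 5 ratios kept their direction under all 9 alternatives. With the replicate block the exact sign-flip p was 0.25, the smallest that 3 pairs allow.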

Other observations

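The genes whose log2 CPM most resembled each called gene over the 6 libraries are given as a description, since the 6 libraries share 1 contrast. For SUV39H1 they were AMPD2 (Pearson r = 0.997), which averaged 42.7 ± 2.20 CPM in ASO-L1 and 29.4 ± 1.93 CPM in SO-L1, EIF4G1 (0.997) and SUN1 (0.996). For CBX5 they were PDE5A (0.999), at 17.9 ± 1.45 CPM in ASO-L1 and 23.3 ± 1.08 CPM in SO-L1, the pseudogene NANOGP8 (0.997) and ZYG11B (0.996). For CHAF1A they were SHCBP1 (0.998), at 48.7 ± 3.67 CPM in ASO-L1 and 37.5 ± 1.05 CPM in SO-L1, ORMDL3 (0.997) and CSPG4 (0.996). Such likeness was common: of 12145 candidate genes, 506 had an r above 0.95 with SUV39H1, 793 with CBX5 and 447 with CHAF1A.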
